A study of Rattus norvegicus with 2 samples.

Results

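Leukocyte adhesion molecules are the surface proteins by which white blood cells in the blood catch, hold and cross a vessel wall. The genes of 7 of them were examined by symbol among the 25399 genes measured, with the identifiers *Vcam1* (ENSRNOG00000014333), *Icam1* (ENSRNOG00000020679), *Icam2* (ENSRNOG00000025143), *Sele* (ENSRNOG00000002723), *Selp* (ENSRNOG00000002794), *Esam* (ENSRNOG00000033217) and *Cd34* (ENSRNOG00000045558). All 7 were found. They were chosen with earlier results of these data known. The libraries came from hearts of neonatal Sprague-Dawley rats of 1-3 days, pooled male and female. Ventricular tissue cut from the apex was minced and digested with trypsin. The cells were passed over a Percoll gradient to enrich ICA cells, the intrinsic cardiac adrenergic cells of the heart. The isolated cells were plated and cultured, and received saline (control) or LPS, the bacterial endotoxin, at 1 µg/ml for 2 h. They were then taken up again with trypsin and EDTA, and gave 1 droplet library per condition. With 1 library per condition no test between conditions was possible, so every interval below covers counting error only, and LPS, the cell preparation and the library cannot be told apart.

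By way of background, adhesion proceeds in steps. The selectins *Sele* (E-selectin) and *Selp* (P-selectin) on activated endothelium let white blood cells tether and roll. *Icam1*, *Icam2* and *Vcam1*, members of the immunoglobulin superfamily, then bind integrins on the white blood cell and hold it firmly. *Esam*, an adhesion molecule of endothelial junctions that platelets carry as well, lies where cells cross. *Cd34* is a sialomucin of endothelial, stromal and blood progenitor cells that can be decorated to bind L-selectin. Bacterial endotoxin acts through the receptor TLR4 on NF-κB, a transcription factor known to drive *Vcam1*, *Icam1* and *Sele* in endothelium, whereas *Icam2* is known as a molecule of resting endothelium.

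The control library held 11531 cell barcodes with a median of 12479 UMIs (unique molecular identifiers, each a captured RNA molecule) and the LPS library 12689 with a median of 9432. Of these, 24210 cells carried 1 of 11 clusters set by the authors, of which cluster 4 (723 control and 823 LPS cells) and cluster 5 (350 and 443 cells) were named endothelial and together made up 9.66%. A level is the sum of a gene's UMIs in a cluster per 1000000 UMIs of that cluster (CPM). Of 12 endothelial markers, 11 were in the gene table and all 11 had UMIs in both endothelial clusters. Cluster 4 was high in *Cldn5* (627 CPM in control and 444 in LPS cells) and the capillary genes *Fabp4* and *Gpihbp1*, whereas cluster 5 was high in *Plvap* (609 and 477 CPM), a gene of fenestrated and endocardial endothelium. *Cldn5* in cluster 5 was at 55.5 and 21.1 CPM and *Plvap* in cluster 4 at 82.2 and 54.9. Markers of other cells were present in the endothelial clusters too. The 9 fibroblast markers stood there at between 16.7% and 43.8% of their levels in fibroblast cluster 0 in the LPS library and between 19.0% and 33.2% in the control library. Free RNA or mixed droplets would give such values, and their part in the levels below was not tested. Of the barcodes, 194 occurred in both libraries. They fell in the same cluster in 39.2% of cases, against 35.3% if clusters were paired by their shares.

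In each endothelial cluster the same 4 genes, *Vcam1*, *Icam1*, *Sele* and *Selp*, were at least 2-fold higher in the LPS library, out of 7 members with at least 50 UMIs in cluster 4 and 6 in cluster 5. The same fold was passed by 2.65% of all 9492 such genes in cluster 4 and by 4.24% of 7824 in cluster 5. *Icam2*, *Esam* and *Cd34* did not reach it in cluster 4 in either direction, where 4.08% of genes were at least 2-fold lower. In cluster 5, with 4.56% of genes at least 2-fold lower, *Icam2* and *Esam* also stayed within 2-fold and *Cd34* had fewer than 50 UMIs. The minimum was taken over both libraries. *Vcam1*, *Sele* and, in cluster 4, *Selp* reached it only with their LPS UMIs, and a member low in both libraries would not have been counted. The median log2 ratio of LPS to control was 2.77 over the 7 members in cluster 4, against -0.09 over all genes, and 3.13 over the 6 in cluster 5, against -0.06. The median over all genes lay further from 0 in cluster 6 (-0.31), cluster 0 (-0.13) and cluster 2 (-0.12), so that ratios there are understated by that much if the typical gene is taken as the reference.

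**Figure D1:**
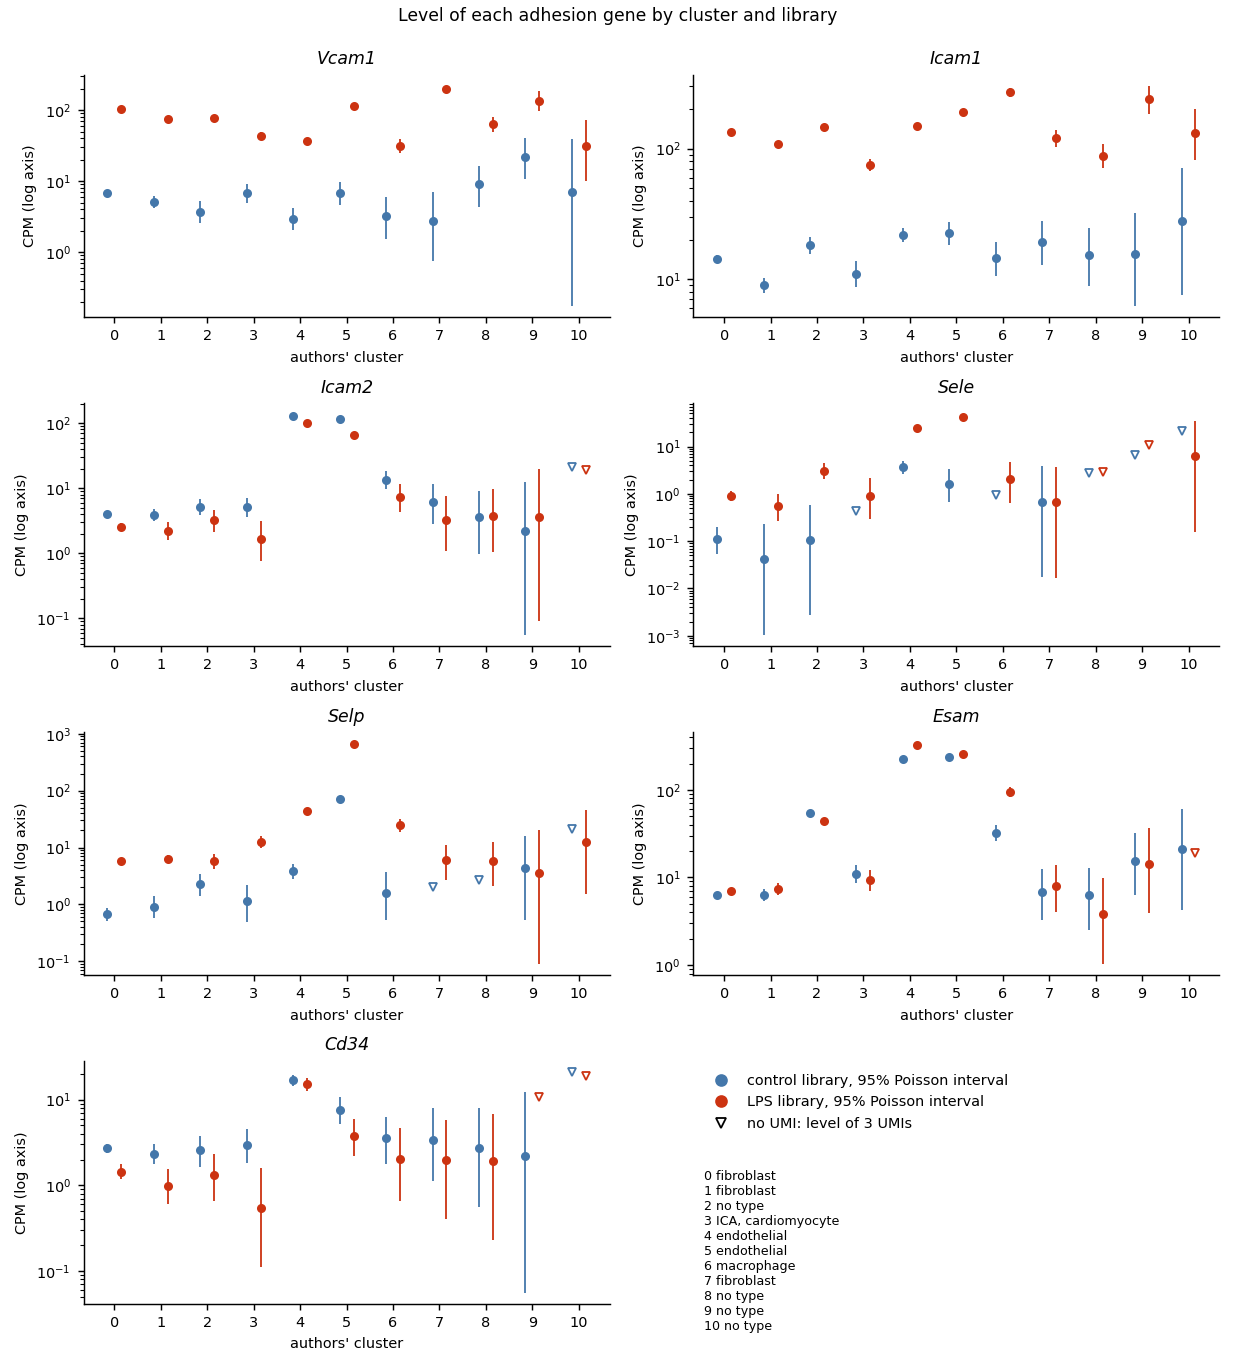
Level of each of the 7 adhesion genes in the authors' 11 clusters, in CPM on log axes, for the control library (blue) and the LPS library (red). Bars are exact 95% Poisson intervals of the UMI count and open triangles mark the level of 3 UMIs where none was found. *Icam2* and *Esam* stand highest in the endothelial clusters 4 and 5 in both libraries, *Selp* reaches 656 CPM in cluster 5, and *Vcam1* and *Icam1* are spread over endothelial and other clusters alike.

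Among the selectins, *Selp* separated the endothelial clusters. In the control library it stood at 71.5 CPM in cluster 5 (304 UMIs, interval 63.7 to 80.0) and at 3.87 CPM in cluster 4 (43 UMIs, 2.80 to 5.21). In the LPS library it stood at 656 CPM in cluster 5 (2986 UMIs, 633 to 680) and at 43.6 CPM in cluster 4 (424 UMIs, 39.5 to 47.9). Cluster 5 thus had the highest *Selp* level of all clusters in both libraries, and its interval lay apart from that of the next cluster each time. LPS cells exceeded control cells by a ratio of 9.17 (8.15 to 10.4) in cluster 5 and 11.3 (8.22 to 15.8) in cluster 4, intervals that overlap. Cluster 5 held 71.9% of all *Selp* UMIs of the LPS library.

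*Selp* was also unevenly spread over the cells of a cluster. In cluster 5, 193 of 350 control cells had no *Selp* UMI and none had 10 or more. In the LPS library, 50 of 443 cells had none and 108 had 10 or more, up to 52 in a cell. In cluster 4 of the LPS library, 694 of 823 cells had none, while the tenth of cells with the most held 88.9% of the UMIs. Most cluster 4 cells therefore showed no *Selp* RNA at this depth, and a few carried up to 20 UMIs. In macrophage cluster 6 *Selp* was at 1.61 CPM in control and 24.5 CPM in LPS cells (5 and 61 UMIs, ratio 15.3, 6.20 to 48.8), but 41 of the 61 UMIs lay in 2 cells. Without the 8% of cells with the most UMIs the log2 ratio there was 1.65 in place of 3.93.

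*Sele*, the selectin that endothelium makes anew when activated, had the fewest UMIs of the 4 genes over all cells. It counted 41 control and 244 LPS UMIs in cluster 4, which is 3.69 and 25.1 CPM, the latter with an interval of 22.0 to 28.4. In cluster 5 it counted 7 and 188 UMIs, or 1.65 CPM (0.662 to 3.39) and 41.3 CPM (35.6 to 47.7). The ratio was 6.80 (4.87 to 9.72) in cluster 4 and 25.1 (11.9 to 63.2) in cluster 5, the highest of the members in that cluster, with only 7 control UMIs behind it. In control cells the *Sele* intervals of the endothelial clusters overlapped, and in LPS cells cluster 5 stood above cluster 4. Over both clusters together the ratio was 9.69 (7.18 to 13.3). Even with LPS, 698 of 823 cells of cluster 4 and 341 of 443 of cluster 5 had no *Sele* UMI.

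*Icam1*, the ligand of the leukocyte integrins LFA-1 and Mac-1, was higher in the LPS library in every cluster with at least 50 UMIs, 10 in all. In cluster 4 it stood at 21.8 CPM in control (243 UMIs, 19.2 to 24.8) and 150 CPM in LPS cells (1461 UMIs, 142 to 158), a ratio of 6.87 (5.99 to 7.90). In cluster 5 it stood at 22.6 CPM (96 UMIs) and 189 CPM (862 UMIs), a ratio of 8.38 (6.78 to 10.46). The control levels of the endothelial clusters did not differ beyond their intervals, and the LPS level of cluster 5 lay above that of cluster 4. The highest LPS level, 270 CPM (250 to 291), was that of macrophage cluster 6, from 14.4 CPM (10.54 to 19.3) in control, and its interval overlapped that of cluster 9 at 240 CPM. Its ratio of 18.7 (13.8 to 25.9) was the highest for *Icam1* over the clusters with at least 50 UMIs, and the lowest was 5.79 in cluster 8. In fibroblast cluster 0 the levels were 14.4 and 135 CPM (ratio 9.38, 8.85 to 9.95). This large cluster held 58.0% of the *Icam1* UMIs of the LPS library, and 73758241 of the library's 127580475 UMIs over all genes.

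*Vcam1*, the ligand of the integrin VLA-4 on lymphocytes and monocytes, was higher with LPS in all 9 clusters with at least 50 UMIs, and its levels did not single out endothelium. It rested low in both endothelial clusters, at 2.97 CPM (33 UMIs, 2.04 to 4.17) in cluster 4 and 6.82 CPM (29 UMIs, 4.57 to 9.80) in cluster 5 of the control library. In the LPS library it stood at 36.4 CPM (354 UMIs, 32.7 to 40.4) and 114 CPM (520 UMIs, 105 to 125). The ratio was 12.3 (8.57 to 18.1) in cluster 4 and 16.7 (11.5 to 25.3) in cluster 5. Fibroblast cluster 0 stood at 6.91 and 102 CPM (625 and 7527 UMIs, ratio 14.8, 13.6 to 16.1) and held 66.8% of the *Vcam1* UMIs of the LPS library. Over all genes this cluster held 73758241 of the 127580475 UMIs of that library. Cluster 2, which carries mural markers, stood at 3.74 and 77.0 CPM (ratio 20.6, 14.7 to 29.9). The highest level, 198 CPM (176 to 222), with an interval that overlapped that of cluster 9, was in the small fibroblast cluster 7, with a ratio of 72.3 (27.9 to 267) on only 4 control UMIs. Among clusters with at least 50 UMIs the lowest ratio was 6.38 in cluster 3, the cluster of ICA cells and cardiomyocytes. The *Vcam1* level there lay within the range of the fibroblast markers, as given next.

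As *Vcam1* in cluster 4 was at 35.6% of its level in fibroblasts, the level there was set beside that of the fibroblast markers, which in the LPS library ran from 16.7% to 30.8% of cluster 0 in the same cells, with a median of 24.6%. *Vcam1* in cluster 4 lay above the highest of these by few points, and the part of fibroblast RNA in it was not tested. In cluster 5 *Vcam1* was at 112% of cluster 0, beside 17.0% to 43.8% for the markers. *Icam1* was at 111% in cluster 4 and 140% in cluster 5. In macrophages *Vcam1* was at 30.7%, within the 22.7% to 35.8% of the markers, whereas *Icam1* was at 200%. In cluster 3 *Vcam1* was at 42.4%, within the 18.3% to 53.2% of the markers, and *Icam1* at 55.5%. In cluster 2 *Vcam1* was at 75.5%, within 19.0% to 77.7%, and *Icam1* at 108%. Only *Col1a2* was above *Vcam1* there, and the marker median was 35.6%. The part of fibroblast RNA in these levels was not tested either.

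The stretches upstream of *Vcam1* and *Icam1* are shown because these genes had a ratio above 1 in every cluster where they were counted, and because NF-κB sites in their promoters are textbook examples. The sequences are those of RefSeq for the rat assembly GRCr8, which matched 4 of the 7 genes (*Vcam1*, *Icam1*, *Sele* and *Cd34*). Windows from 250 bases before to 50 bases after the start were searched for 2 motifs chosen after sites known for this factor, a gapped motif of GGG, any 4 bases and CCC, and the letters GGAANTTCC. Each reads the same on both strands. Among 33469 windows of the rat genome, 11.6% held the gapped motif, 2.28% held it at least 2 times and 0.872% held GGAANTTCC. The *Vcam1* window held the gapped motif 2 times, from 108 to 99 and from 93 to 84 bases before the start. The *Icam1* window held GGAANTTCC once, from 218 to 210 bases before the start used by the table, and another RefSeq start of the gene lies 157 bases upstream of that one. The windows of *Sele* and *Cd34* held neither, and the start site used for the *Sele* window lies 517 bases inside the gene as RefSeq draws it. A match describes the letters and not binding. The stretches follow 5′ to 3′ along the gene, with the matches in capitals, at chr2:206742830-206742929 on the minus strand for *Vcam1* and chr8:27829595-27829687 on the plus strand for *Icam1*.
Vcam1: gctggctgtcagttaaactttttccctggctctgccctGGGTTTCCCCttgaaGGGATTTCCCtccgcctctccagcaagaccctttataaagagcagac
Icam1: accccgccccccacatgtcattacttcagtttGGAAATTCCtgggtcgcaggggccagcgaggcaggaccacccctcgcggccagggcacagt

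*Icam2*, a ligand of LFA-1 present on resting endothelium, was lower in the LPS library. In cluster 4 it stood at 129 CPM in control (1435 UMIs, 122 to 136) and 101 CPM in LPS cells (988 UMIs, 95.3 to 108), a ratio of 0.787 (0.725 to 0.854). In cluster 5 it stood at 115 CPM (490 UMIs, 105 to 126) and 66.1 CPM (301 UMIs, 58.9 to 74.1), a ratio of 0.574 (0.495 to 0.663). The interval of the ratio lay below 1 in 5 of the 6 clusters with at least 50 UMIs, and none of these 6 ratios reached 2-fold. Both endothelial clusters lay far above the next, cluster 6, at 13.5 and 7.24 CPM. *Icam2* and *Icam1* thus differed in direction within the same endothelial clusters. The 11 endothelial markers, summed, were also lower in the LPS library, at 3050 and 2501 CPM in cluster 4 and 2593 and 2011 CPM in cluster 5.

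*Esam*, the junction molecule, was the member whose direction differed between clusters. In cluster 4 it stood at 226 CPM in control (2517 UMIs, 217 to 235) and 328 CPM in LPS cells (3196 UMIs, 317 to 340), a ratio of 1.45 (1.38 to 1.53). In cluster 5 it was at 237 and 258 CPM, and the interval of the ratio, 1.09 (0.997 to 1.18), held 1. In cluster 2 it was lower with LPS, at 54.0 and 43.6 CPM (506 and 366 UMIs, ratio 0.807, 0.703 to 0.925). In macrophage cluster 6 it was at 32.4 CPM (101 UMIs, 26.4 to 39.4) and 94.9 CPM (236 UMIs, 83.2 to 108), a ratio of 2.93 (2.31 to 3.73). Those macrophage UMIs came from 133 of 291 LPS cells and no cell had more than 9, so that few cells did not decide the value, unlike for *Selp* there. Platelet and endothelial markers in macrophages are given beside *Esam*, which both cell types carry, and the part of their RNA in its level was not tested. *Pf4*, which macrophages also express, was at 2999 and 3601 CPM, whereas *Itga2b*, *Gp9*, *Ppbp* and *Gp1bb* were each under 1 CPM in both libraries. The endothelial markers in macrophages, summed, were at 328 CPM in control and 247 in LPS cells. Among them *Eng* had 528 and 263 UMIs and *Tie1* 106 and 59. *Cdh5*, with 60 and 65 UMIs (19.3 and 26.1 CPM), was the only marker of the list with a higher level in LPS cells. The capillary endothelial markers, summed, were at 136 and 158.5 CPM.

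*Cd34* was low and did not reach 2-fold in cluster 4, at 16.8 CPM in control (187 UMIs, 14.5 to 19.4) and 15.1 CPM in LPS cells (147 UMIs, 12.8 to 17.7), with an interval of the ratio of 0.719 to 1.12 around 0.898. In cluster 5 it counted 32 and 17 UMIs, or 7.53 and 3.74 CPM (ratio 0.496, 0.258 to 0.9204). In fibroblast cluster 0 it stood at 2.71 and 1.45 CPM (245 and 107 UMIs, ratio 0.536, 0.423 to 0.675), which is 16.1% and 9.61% of its cluster 4 level. In fibroblast cluster 1 the ratio was 0.426 (0.242 to 0.721), the only member at least 2-fold lower in any cluster with at least 50 UMIs, where 5.09% of genes were at least 2-fold lower. With each cell thinned to 3000 UMIs the log2 ratio there was -0.80 in place of -1.23, within 2-fold. Of the blood progenitor markers beside *Cd34*, *Ptprc* was under 1 CPM in both endothelial clusters, while *Kit* (51.2 and 52.4 CPM in cluster 4) and *Gata2*, which endothelium also expresses, were present. *Cd48* stood at 363 and 602 CPM in control and LPS cells of cluster 4 and at 210 and 307 CPM in cluster 5.

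**Figure D2:**
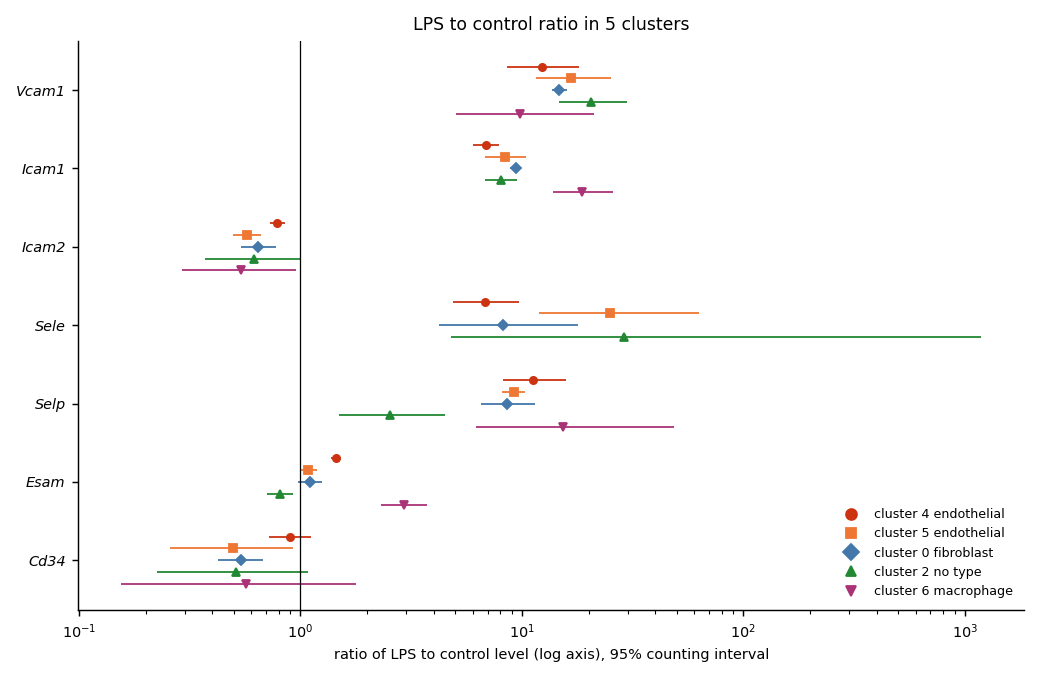
Ratio of the LPS level to the control level of each adhesion gene in 5 clusters, on a log axis, with the exact 95% counting interval and a line at 1. *Vcam1*, *Icam1* and *Selp* lie above 1 in all clusters shown, *Icam2* below 1 in all with the interval of cluster 2 reaching 1, and *Esam* on both sides. *Sele* in cluster 6 is not drawn, because no control UMI was found.

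Outside the endothelial clusters the counts followed the same genes. At least 2-fold higher were 4 of 7 members in cluster 0 (*Vcam1*, *Icam1*, *Sele* and *Selp*, against 3.44% of all genes), 3 of 6 in cluster 1 (3.23%), 3 of 5 in cluster 2 (2.86%) and 3 of 4 in cluster 3 (1.70%), each of these last being *Vcam1*, *Icam1* and *Selp*. In cluster 6 they were 4 of 5 (*Vcam1*, *Icam1*, *Selp* and *Esam*, against 4.82% of all genes), in cluster 7 they were 2 of 2 (4.70%), in cluster 8 they were 2 of 2 (2.48%) and in cluster 9 they were 1 of 1 (2.69%). In clusters 7 to 9 these members had 4 to 28 control UMIs and reached 50 only through the LPS library. A full count there is nearly set by that minimum and is not read as a result. *Vcam1* in clusters 2, 3 and 6 and *Icam1* in cluster 6 also reached it only with their LPS UMIs. So did *Selp* in clusters 1, 2, 3 and 6 and *Sele* in cluster 0. No member with at least 50 UMIs was 2-fold lower in cluster 0 (9.10% of all genes), 2 (4.28%), 3 (1.69%), 6 (12.3%), 7 (3.45%), 8 (1.67%) or 9 (2.81%), and in cluster 10, with 16 and 26 cells, no member had 50 UMIs. *Selp* in cluster 2 was at 2.24 and 5.71 CPM (21 and 48 UMIs, ratio 2.55, 1.497 to 4.48), and with each cell thinned to 3000 UMIs its log2 ratio was 0.25 in place of 1.35. *Sele* in cluster 0 was at 0.111 and 0.908 CPM (10 and 67 UMIs), and its log2 ratio of 3.04 was 1.91 after thinning. Both *Sele* and *Selp* in cluster 0 were at most 3.00% of their endothelial level in either library, as given below. The part of free RNA or mixed droplets in these 2 calls was not tested. In clusters 3 and 6 *Sele* had no control UMI and 5 LPS UMIs, at least 2.15-fold and 2.09-fold higher when 3 UMIs are taken as the limit of a count of 0.

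**Figure D3:**
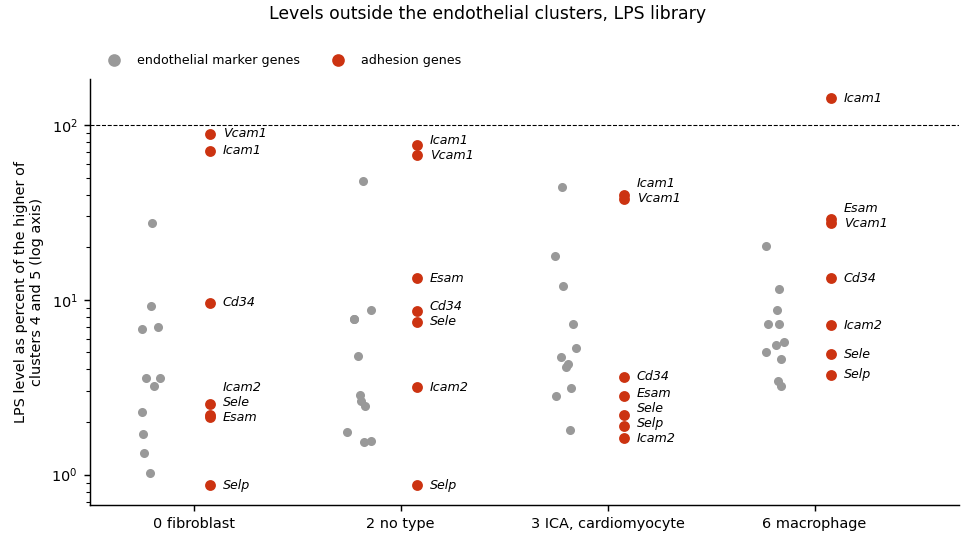
Level of the adhesion genes (red) and of 11 endothelial marker genes (grey) in 4 non-endothelial clusters of the LPS library, as a percent of the higher of clusters 4 and 5 on a log axis, with a dashed line at 100%. *Vcam1* and *Icam1* lie between 27.5% and 143%, and *Selp* lies below the lowest marker in clusters 0 and 2, at 0.868% and 0.871%.

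Stray endothelial RNA or mixed droplets can leave endothelial markers in other clusters, so the members were set beside these markers there. A marker that another cluster makes itself would widen the range, and the part of stray RNA was not tested. In cluster 0 of the LPS library the 11 markers lay between 1.02% and 27.7% of their endothelial level, with a median of 3.56%. The highest marker was *Eng*, and the next was *Egfl7* at 9.18%. In that cluster *Selp* was at 0.868% (0.927% in the control library) and *Sele* at 2.199% (3.00% in the control library). *Esam* was at 2.13%, *Icam2* at 2.52% and *Cd34* at 9.61%. Only *Eng* was above *Cd34*, and *Selp* was below all of the markers. *Vcam1* at 89.3% and *Icam1* at 71.3% were above every marker. In macrophage cluster 6 the markers lay between 3.21% and 20.3%, and *Icam1* (143%), *Esam* (28.9%) and *Vcam1* (27.5%) were above all of them. *Cd34*, *Icam2*, *Sele* and *Selp* were between 3.74% and 13.3%. Beside the fibroblast markers, however, *Vcam1* in these macrophages was within their range, at 30.7% of cluster 0 against 22.7% to 35.8%. In cluster 2 *Icam1* and *Vcam1* were at 77.2% and 67.4%, and *Esam* was at 13.3% beside a marker median of 2.85%, with only *Eng* above it.

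**Figure D4:**
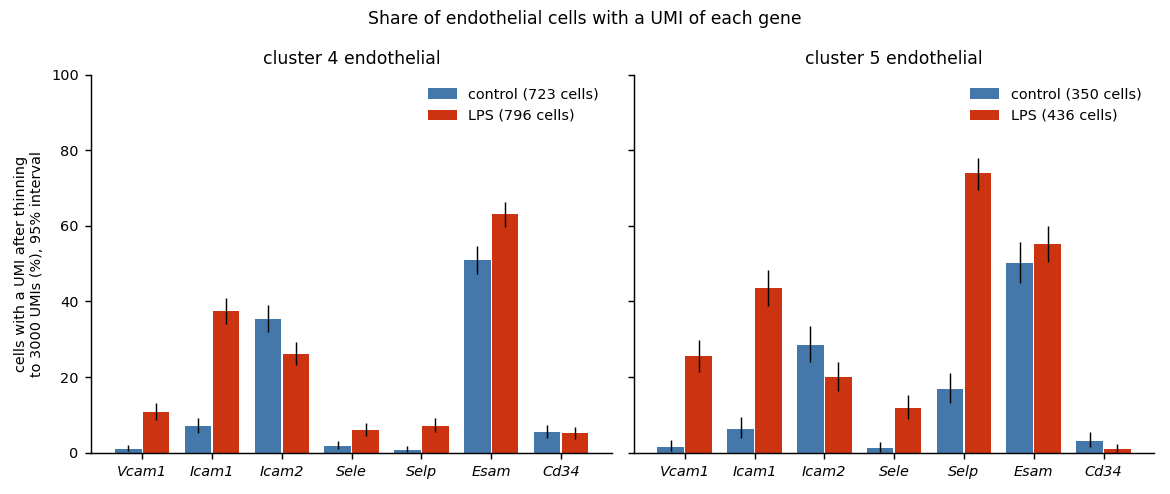
Share of endothelial cells with at least 1 UMI of each adhesion gene after each cell was thinned to 3000 UMIs, in percent from 0 to 100, for control (blue) and LPS cells (red) of clusters 4 and 5. Bars carry Clopper-Pearson 95% intervals. *Selp* in cluster 5 goes from 16.9% to 73.9% and *Icam1* in cluster 4 from 7.05% to 37.4%, while *Icam2* is lower with LPS in both clusters.

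Because LPS cells were shallower, shares of cells were compared after each cell was thinned to 3000 UMIs, which left out 27 LPS cells of cluster 4 and 7 of cluster 5. Cells with *Selp* went from 16.9% (13.1% to 21.2%) to 73.9% (69.5% to 77.9%) in cluster 5, and from 0.830% (0.305% to 1.80%) to 7.16% (5.47% to 9.18%) in cluster 4. Cells with *Sele* went from 1.14% to 11.9% in cluster 5 and from 1.80% to 5.90% in cluster 4. Unthinned, the LPS shares in clusters 5 and 4 were 88.7% and 15.7% for *Selp* and 23.0% and 15.2% for *Sele*. In fibroblast cluster 0, which should lack both selectins, 1.94% of LPS cells had *Selp* and 0.285% had *Sele* after thinning, at median depths of 9821.5 UMIs in cluster 0, 9972 in cluster 4 and 8998 in cluster 5 before it.

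For the immunoglobulin members, *Icam1* was found in 7.05% of control and 37.4% of LPS cells of cluster 4 and in 6.29% and 43.6% of cluster 5. *Vcam1* was found in 0.968% and 10.8% of cluster 4 and in 1.43% and 25.5% of cluster 5, so that the share in LPS cells was higher in cluster 5, as the levels were. Unthinned, *Vcam1* was found in 27.8% of LPS cells of cluster 4 and 50.1% of cluster 5, and *Icam1* in 70.7% and 73.8%. *Icam2* went from 35.4% (31.9% to 39.0%) to 26.1% (23.1% to 29.3%) in cluster 4 and from 28.6% to 19.95% in cluster 5. *Esam* was in 51.0% and 63.1% of cluster 4 cells and in 50.3% and 55.3% of cluster 5 cells.

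The 4 genes that were higher with LPS were then counted together in each cell. They were taken because they were higher in these same cells, so the higher joint shares with LPS follow from that choice and are no separate result. At least 1 of *Vcam1*, *Icam1*, *Sele* and *Selp* was found in 10.51% of control and 48.0% of LPS cells of cluster 4, and in 24.3% and 90.1% of cluster 5. At least 2 of them were found in 0.138% and 11.7% of cluster 4 and in 1.43% and 50.7% of cluster 5. In LPS cells of cluster 4, *Sele* was found in 19.3% of the 57 cells with *Selp* (10.0% to 31.9%) and in 4.87% of the 739 without (3.43% to 6.68%), intervals that do not overlap. In cluster 5 the shares were 14.0% of 322 cells (10.4% to 18.2%) and 6.14% of 114 (2.50% to 12.2%), with overlapping intervals. *Icam1* was found in 57.4% of the 47 cells of cluster 4 with *Sele* (42.2% to 71.7%) and in 36.2% of the 749 without (32.7% to 39.7%), but in cluster 5 in 36.5% of 52 (23.6% to 51.0%) and 44.5% of 384 (39.5% to 49.7%). In cluster 5, *Vcam1* was found in 26.1% of the cells with *Selp* and 23.7% of those without, with overlapping intervals. Cells share a library and thinning leaves few UMIs per gene, so these shares are descriptions.

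**Figure D5:**
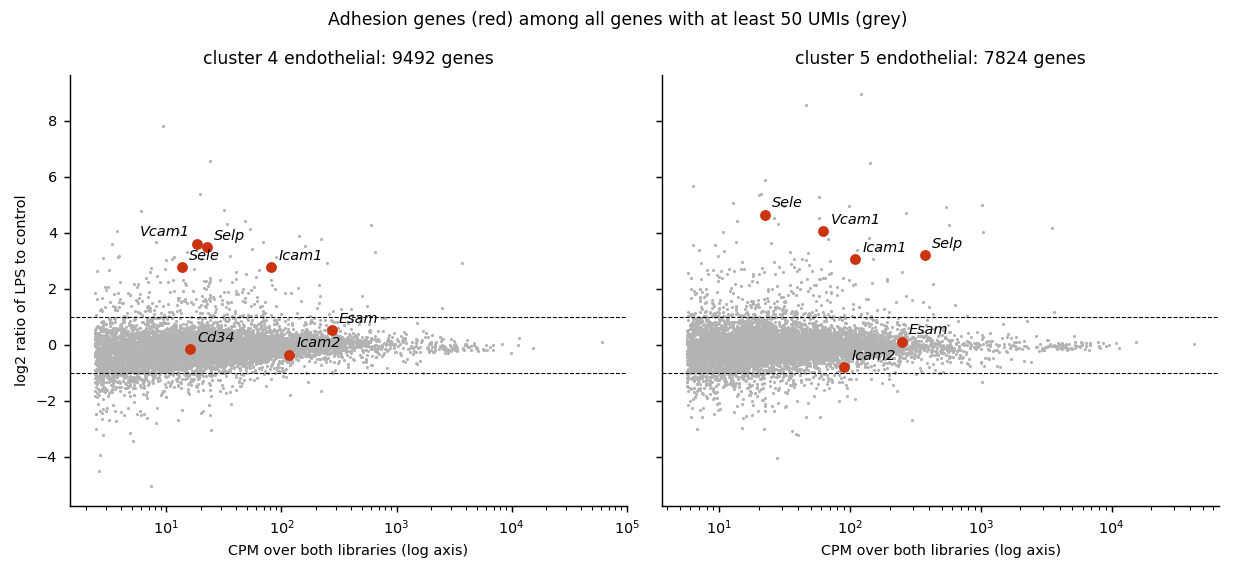
Log2 ratio of LPS to control against the level over both libraries (CPM, log axis) for every gene with at least 50 UMIs in cluster 4 (9492 genes) and cluster 5 (7824 genes), with the adhesion genes in red and dashed lines at 2-fold. *Vcam1*, *Icam1*, *Sele* and *Selp* lie above the upper line in both, and *Icam2*, *Esam* and, in cluster 4, *Cd34* lie between the lines.

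The members were also compared by their pattern over 20 profiles, the 10 clusters with at least 20 cells in each library taken in control and LPS, as Pearson's r of log2(CPM + 1). Profiles of a library share its depth, treatment and free RNA, so r is a description. *Vcam1* and *Icam1* had r = 0.87, *Icam2* and *Esam* 0.87, *Icam2* and *Cd34* 0.85 and *Sele* and *Selp* 0.80, whereas *Vcam1* and *Cd34* had -0.49. Among 9896 genes with at least 500 UMIs, the 5 most like *Icam1* were *Zc3h12a* (0.96), *Nfkb2*, *Nfkb1*, *Nfkbia* and *Birc3*, and those most like *Vcam1* were *Jak2* (0.96), *Cyp7b1*, *Cxcl6*, *Bcl3* and *Csf1*. Most like *Icam2* were *Tmem88* (0.98), *AABR07054469.1*, *Tie1*, *Sox17* and *Egfl7*, of which *Tie1*, *Sox17* and *Egfl7* are endothelial genes. For *Esam* they were *Pqlc1* (0.94), *Tp53i11*, *Ralb*, *Cd200* and *Mapk3*, and for *Cd34* they were *Entpd1* (0.95), *Kcne3*, *Rbks*, *Fabp4* and *Tpst2*. For *Sele* they were *Lyve1* (0.90), *Rgs16*, *Rhoc*, *Spata13* and *Dapk2*. *Selp* had the weakest likeness, with *LOC100909712* (0.84), *Slc7a1*, *Btg1*, *Stx11* and *Tgm2*.

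Of 51 further genes of leukocyte adhesion, 48 were in the gene table. In cluster 4, 31 of them had at least 50 UMIs, of which 4 were at least 2-fold higher (2.65% of all genes) and 2 lower (4.08%), with a median log2 ratio of 0.25 against -0.09 for all genes. In cluster 5 they were 5 higher (4.24% of all genes) and 4 lower (4.56%) of 25, with a median of -0.05 against -0.06. Of the 5 higher there, *Fut4* (24 control UMIs) and *St3gal6* (41) reached 50 UMIs only with their LPS UMIs. The hyaluronan receptor *Cd44* was higher in both clusters, at 25.2 and 55.6 CPM in control and LPS cells of cluster 4 and at 25.9 and 86.8 CPM in cluster 5. *Lyve1*, another hyaluronan receptor, went from 169 to 366 CPM and from 120 to 408, and *St3gal6*, a sialyltransferase, from 12.5 to 37.3 and from 9.65 to 24.6. *Madcam1*, a mucosal addressin for lymphocytes, was at 5.75 and 25.2 CPM in cluster 4 (64 and 245 UMIs) and had 2 and 5 UMIs in cluster 5.

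On the lower side stood the junction gene *Jam2*. It was at 61.9 CPM in control and 22.4 in LPS cells of cluster 4, and at 74.4 and 7.91 CPM in cluster 5. Its ratio of 0.106 (0.0732 to 0.1505) was the lowest of the list in cluster 5 among genes with at least 50 UMIs. *Itgax*, a leukocyte integrin chain, went from 5.12 to 2.47 CPM in cluster 4. In cluster 5 the sialomucin *Emcn* went from 157 to 66.8 CPM, the anticoagulant receptor *Thbd* from 84.0 to 24.0 and the sialyltransferase *St3gal4* from 103 to 48.8, and higher there were also *Fut4*, a fucosyltransferase (5.65 to 12.3), and the sheddase *Adam17* (18.8 to 44.6). Junction genes such as *Cdh5*, *F11r* and *Cd99* stayed within 2-fold in cluster 5, at ratios of 1.29, 0.954 and 0.998. In macrophage cluster 6, 5 of 24 were higher (4.82% of all genes) and 1 lower (12.3%), with a median of 0.44 against -0.31. Of the 5 higher there, *Cd40* (35 control UMIs) and *Ezr* (41) reached 50 UMIs only with their LPS UMIs.

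The integrins that bind these molecules are carried by white blood cells. Of their chains, *Itgb2* was at 139 and 144 CPM in control and LPS cells of cluster 6, where *Itgal* had 4 and 3 UMIs and *Itga4* 2 and 0. *Itgb1* was at 250 and 228 CPM in endothelial cluster 4. Lymphocyte markers were scarce in clusters 4, 5 and 6. The 4 lymphocyte markers in the table summed to 1 or fewer UMIs in cluster 6 and to at most 23 in clusters 4 and 5. The 5 neutrophil markers summed to 5.88 CPM in control and 14.9 CPM in LPS cells of cluster 5, nearly all of it *S100a9* (4.94 and 13.0 CPM), and *Mpo* was at 0 in clusters 4, 5 and 6 of both libraries.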

How the data were processed

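Per the labels and the study's methods, cells were captured with the 10X Genomics Chromium 3′ v2 kit. The authors deposited raw UMI counts per gene and cell barcode, 1 table per library, with their cluster and cell type for each cell. The clusters came from Seurat (RunCCA and FindClusters, resolution 0.5). The submitters' processing notes name Cell Ranger 2.2.0 and Seurat 2.3.4. The genome build and annotation of the counts are not given in the sources used here. Three-prime counts are not read over gene length, so levels were not scaled by it. Ratios were taken within a gene, while some UMI counts, marker levels and marker sums were also set side by side across genes. The clusters were built from expression, so differences between clusters are descriptions.

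Counts were summed per cluster and library and divided by the UMIs of the cluster (CPM). The 10 cells without a cluster (2 UMIs of the members) were left out, no other cell was filtered and no doublet caller was run. The main setting has exact Poisson intervals for levels, exact conditional intervals for ratios and Clopper-Pearson intervals for shares after thinning each cell to 3000 UMIs without replacement (seed 1), all at 95% and covering counting error only. A gene was called at 2-fold with at least 50 UMIs in the cluster over both libraries, and a count of 0 was read as 3 UMIs. No test was made, since cells are not replicates. Named genes were the members, the 5 genes most like each, and genes of the adhesion list past 2-fold in cluster 4 or 5. *Cdh5*, *F11r*, *Cd99*, *Cd40*, *Ezr* and single markers were named after their values were seen. The members and lists were chosen with earlier results of these data known. Alternatives covered the denominator, scaling, cell filters, thinning, the endothelial class, the fold and the UMI minimum. Tested on simulated data with 200 genes changed 4-fold, the procedure called 94.0% of them among 9492 genes of cluster 4 and 93.0% among 7824 of cluster 5. The simulated counts held counting error only and a change well past the 2-fold limit. They therefore cannot tell how calls hold up between libraries or cell preparations. Python 3.11.15, numpy 2.4.6, scipy 1.17.1, pandas 2.3.3 and matplotlib 3.10.9 were used.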

Additional observations from a re-analysis of the deposited data

Results flagged for a closer look

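*Esam* was picked out because its ratio of LPS to control lay on opposite sides of 1 in different clusters, with intervals that do not hold 1. It was 1.451 in endothelial cluster 4 and 2.928 in macrophage cluster 6, against 0.8066 in cluster 2, which carries mural markers. In cluster 2 the interval ended at 0.925 and so held the median ratio over all genes there, 0.921. Scaled by that median, the log2 ratio of *Esam* in cluster 2 was -0.19 in place of -0.31. The difference between clusters was not tested, since each cluster has 1 library per condition.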

How the results depend on the processing

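No paired analysis was possible because the results come from no test and a single library stands for each treatment, which also leaves no replicate to drop. Of 532 values of single members under the alternatives, 499 stayed within the counting interval of the main value and 33 did not, and 0 changed sign where that interval of the log2 ratio lay on one side of 0. Where it held 0, the sign changed for *Esam* in cluster 3 (-0.24, and 0.42 with at most 10% mitochondrial UMIs) and in cluster 9 (-0.12, and 0.29 thinned), *Icam2* in cluster 7 (-0.91, and 0.29 without the 8% of cells with the most UMIs) and in cluster 8 (0.08, and -1.46 without the 10% of cells with the most UMIs of other markers) and *Sele* in cluster 7 (-0.06, and 1.45 as the mean of the cells' own CPM). In cluster 5 the log2 ratio of *Sele* ran from 3.27 (endothelial cells taken by marker UMIs) to 5.14 (without the 8% of cells with the most UMIs) around 4.65, and that of *Cd34* from -1.78 (thinned) to -0.31 (clusters 4 and 5 pooled). In cluster 4 that of *Sele* ran from 2.21 to 3.28 and that of *Vcam1* from 3.47 to 4.08. Leaving out cells whose barcode is in both libraries, and the percent of the higher of clusters 4 and 5, were chosen after seeing the data.

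Counts moved mainly with the fold and the UMI minimum. The members called higher were 2 in cluster 6 and 0 in clusters 8 and 9 with cells thinned or with at least 200 UMIs. In cluster 9 they were 0 with at most 10% mitochondrial UMIs and 2 with at least 20 UMIs, and in cluster 10 they were 1 with at least 20 UMIs. All genes at least 2-fold higher numbered 252 in cluster 4, 535 at 1.5-fold and 125 at 3-fold, and 332 in cluster 5, 753 at 1.5-fold, 157 at 3-fold and 177 with at least 200 UMIs. Those lower numbered 387 in cluster 4, 1253 at 1.5-fold, 85 at 3-fold, 722 with at least 20 UMIs and 136 with at least 200, and 357 in cluster 5, 1024, 88, 637 and 108 in the same order. For the adhesion list, those higher were 8 (1.5-fold) or 1 (3-fold) in cluster 4, 2 (3-fold) or 3 (at least 200 UMIs) in cluster 5 and 2 or 3 likewise in cluster 6. Those lower were 4 (1.5-fold), 0 (3-fold) or 1 (at least 200 UMIs, or scaling by the median ratio) in cluster 4, 8 (1.5-fold) or 2 (3-fold) in cluster 5, and 2 (1.5-fold), 4 (at least 20 UMIs) or 0 (at least 200 UMIs) in cluster 6. Where the fold or the UMI minimum was changed, fewer or more genes met the limit by construction. Thinning, the mitochondrial filter and scaling changed the counts or their scale and not these limits.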
